A study of Mus musculus and synthetic construct with 32 samples.

Results

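The 9-mers described here are the RNA sequences of an RNA Bind-N-Seq experiment in which the central adenosine is followed by another A. They were chosen by their letters alone, A at position 5 and A at position 6 counted from the 5′ end, and they number 16384 of the 65536 9-mers with a central A in the authors' deposited table. RNA Bind-N-Seq is an in vitro selection in which a protein picks RNAs out of a random pool and the bound RNAs are sequenced. The pool was synthetic single-stranded RNA of 21 nt with an N6-methyladenosine (m6A) in the middle and 10 random letters on each side. It was incubated with Ni-NTA beads that carried the YTH domain of human YTHDC2, as a fusion with a 6xHis tag and SUMO, or with Ni-NTA beads alone, in 4 libraries each, all with the same m6A pool, so no unmethylated RNA is compared. The series also holds mouse testis and ovary libraries, which contain no 9-mers and were not analysed here.

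YTH domains recognise m6A by enclosing the methylated base in a pocket of aromatic residues, and the letters around the base modulate how well an RNA is held. In cells the METTL3-METTL14 methyltransferase places m6A mostly in the motif DRACH, in which D is A, G or U, R is A or G, and H is A, C or U. The C after the methylated A is the most constant letter of that motif. A 9-mer with A in that place therefore lies outside the consensus, and only a synthetic pool offers it with a methyl group at every central A. The central A of the 9-mers is taken here to be the m6A of the pool, although how 9-mers were counted is not given in the sources used here. YTHDC2 is a helicase that germ cells need for meiosis, and its YTH domain is its m6A-binding part.

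The sequences that carry the results are printed here 5′ to 3′, with T for uridine as in the deposited table and with the central A and the A after it in capitals. The first line is the member nearest the median fold, the second the lowest member, and the others are high members described further on.
Median member: acggAAtgt
Lowest member: cccgAAggg
Highest member: ctcaAAttc
Second highest member: ttgtAAtgc
Member ranked 3: ccggAAcgc
Member ranked 4: agagAAccc
Member ranked 5: tctaAAtcc
Highest member with G at position 7: ctctAAgcc
Highest member with A at position 7: gaccAAatg

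Each 9-mer has 1 fold, the linear ratio of YTH domain over beads, and 1 unadjusted p-value, both from the authors. Values per library could not be tied to the labels, so the spread between the 4 libraries of a kind is not printed and shows only through the p-value. The 9 distinct p-values of the table are the 9 that an exact two-sided rank-sum test of 4 against 4 libraries can give, although the test is not named. The smallest, 0.0286, is reached when the 4 libraries of one kind all lie beyond the 4 of the other. After Benjamini-Hochberg adjustment over all 65536 9-mers it became 0.0443, the next p-value became 0.0791, and a 9-mer was called at an adjusted p below 0.05. If that test was used, a call means that the libraries of the 2 kinds did not overlap. It does not grade the size of the fold, and whether the libraries were separate binding reactions is not given in the sources used here. How the libraries were scaled is not given either, and the median fold of all 9-mers was 0.774 (log2 -0.37), so folds are best read against that level as well as against 1.

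Most 9-mers with A after the m6A were depleted in the YTH domain libraries. Their median fold was 0.646, with quartiles of 0.573 and 0.767, and 90.3% of them lay below 1. The called 9-mers were 11459 lower, or 69.9% of the 16384, against 47.2% of the whole table, and 825 higher, or 5.04%, against 17.3% of the whole table. The other 4100 were not called, 770 of them with a fold above 1. The lower calls had a median fold of 0.602 and the higher calls a median of 1.67. Only 863 members were at 0.5 or below, while the upper end reached 36.7, so the distribution had a narrow lower side and a long upper tail. The authors' deposited table gave the median member, acggAAtgt, a fold of 0.646, and it was called lower (Benjamini-Hochberg adjusted p = 0.0443).

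Among the letters after the m6A, A had the lowest median fold and G came close to it. The median was 1.06 for 9-mers with C after the m6A, the letter of the DRACH motif, 0.933 with T, 0.676 with G and 0.646 with A. Of the 16384 9-mers with each letter, 5499 were called higher with C, 4102 with T, 881 with G and 825 with A. Lower calls numbered 3803 with C, 4795 with T, 10907 with G and 11459 with A. These are counts over 9-mers measured in the same libraries, and 9-mers are not replicates, so the differences between letters carry no test.

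The order was similar when the other 8 letters were held constant. Each of the 16384 contexts occurs with all 4 letters at position 6, which gives as many matched sets of 4. The 9-mer with A was lower than its match with C in 86.6% of the sets, lower than its match with T in 82.6% and lower than its match with G in 59.5%. The median log2 ratio was -0.69 against C (quartiles -1.13 and -0.26), -0.51 against T (quartiles -0.93 and -0.15) and -0.07 against G (quartiles -0.28 and 0.14). A was the lowest of the 4 in 8771 sets and G in 5649, while C was the highest in 9306 sets and A in 1335. The gap to C and T was thus wide in most contexts, and the gap to G was narrow and changed sign in many of them.

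The gap between A and C differed with the letter before the m6A. With G at position 4 the median log2 ratio of A over C was -0.25, and with A, C or T there it was -0.80, -0.87 and -0.86. The medians behind this were 0.653 with A after and 0.780 with C after when G came before, and 0.696 with A after and 1.20 with C after when A came before. Most of the narrowing with G before therefore lay in the lower folds of the 9-mers with C after. The letter at position 7 mattered in the same comparison: the log2 ratio of A over C was -0.98 with A at position 7, -0.89 with C, -0.51 with G and -0.42 with T. Against G at position 6, T at position 7 was the letter with which A was the higher of the 2 at the median, by 0.09 on the log2 scale, and A was lower in 35.9% of those 4096 sets.

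At positions 3, 4 and 7, which correspond to D, R and H of the motif, A was the letter with the highest median fold. At position 4, next to the m6A on its 5′ side, the medians were 0.696 with A, 0.653 with G, 0.641 with T and 0.602 with C, so both purines of the R position lay above both pyrimidines. Position 3 had medians of 0.684 with A, 0.649 with G, 0.631 with C and 0.620 with T. At position 7 the median was 0.725 with A, and G, C and T lay together at 0.629, 0.625 and 0.625. Every one of these 12 medians was below the 0.774 of all 9-mers.

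Pairs of letters before the m6A followed this pattern in part. Read as a dinucleotide at positions 3 and 4, AG had the highest median, 0.731, followed by AA at 0.725 and GA at 0.707. TC, GC and TG had the lowest, 0.579, 0.584 and 0.590. TG thus lay below TT, at 0.647, and CG at 0.618 lay just below CT at 0.621. Higher calls were most frequent after AG, in 105 of 1024 members or 10.3%, and least frequent after GC, in 18 of 1024 or 1.76%. GG, the pair of the often cited core GGAC, stood at 0.676 with A in place of the C.

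No combination of the letters at positions 3, 4 and 7 lifted the typical member to a fold of 1. Of the 64 combinations, with 256 members each, 0 had a median above 1, and 4 had a median above the 0.774 of all 9-mers. These 4 all had A at position 7. The highest was AA before and A at position 7, a run of 5 adenosines around and including the m6A, with a median of 0.864, 21 members called higher and 65 called lower. GA before with A at position 7 had 0.795, TA before had 0.794 and AG before had 0.782. The lowest was TC before with C at position 7, with a median of 0.548, 0 higher calls and 243 lower calls, followed by TC before with T at position 7 (0.550) and GC before with C at position 7 (0.563). The full range of the 64 medians was thus smaller than the gap between A and C at position 6 in the medians of all their 9-mers. The 4608 members that carry the D, R and H letters of the motif differ from it by the A alone. They had a median of 0.696 with 6.34% called higher, against 0.646 and 5.04% for all members. The 4608 DRACH 9-mers themselves had 1.05 with 33.9% called higher. All 9-mers with C after the m6A had nearly the same values, 1.06 and 33.6%.

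Richness in A went with a higher typical fold but not with more high members. Over the 7 free letters, the median was 0.592 in the 2187 members without another A, 0.646 with 2 and 0.806 with 5 further As. Higher calls went the other way, from 6.40% without another A to 5.13% with 2 and 0.529% with 5. Folds of at least 2 numbered 55 without another A, 60 with 2 and 0 with 5. The member made of 9 As had a fold of 0.905.

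The folds did not go one way with a DRACH motif elsewhere in the 9-mer. The letters of the members leave room for it at positions 1 to 5, 4 to 8 and 5 to 9, always around an A that the pool's design does not methylate. The 384 members with a motif at positions 1 to 5 had a median of 0.624, the 2304 with one at positions 4 to 8 had 0.645, and the 768 with one at positions 5 to 9 had 0.742. The last set has A at position 7 by definition, where the median of all members was 0.725 and 5.96% were called higher. It also has C at position 8 and lacks G at position 9. All members with A at position 7 and C at position 8 had a median of 0.802 with 9.96% called higher. The part of them with G at position 9, the ending ACG, had 1.14 with 32.8% called higher. The set at positions 4 to 8 has C at position 7 by definition. All members with C there had a median of 0.625 with 1.88% called higher, and those without another motif had a median of 0.595. With C at position 7, the motif at positions 4 to 8 is absent only with C at position 4 or G at 8. Among all members those letters had the lowest medians at their positions, 0.602 and 0.604, so this comparison does not isolate the motif. The set at positions 1 to 5 has A at position 3 and C at position 4 by definition. All members with that pair had a median of 0.642 with 3.81% called higher. Higher calls were 2.86%, 2.47% and 2.34% of the 3 motif sets in that order, against 5.71% of the 12946 members with none, whose median was 0.643.

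The 3 letters at the 3′ end separated the folds more than the letters at positions 1 to 4. When the variance of the log2 fold among the 16384 members was divided by position, position 8 accounted for 7.76%, position 9 for 5.20%, position 7 for 3.83%, position 4 for 2.83% and positions 1, 2 and 3 for 1.02%, 1.12% and 1.13%. Positions 7, 8 and 9 read as a trinucleotide accounted for 39.5%, and positions 1 to 4 read together for 14.2%. With C after the m6A, positions 3, 4 and 7 added up to 33.1% and positions 8 and 9 to 8.49%, against 7.79% and 13.0% with A after. Position 7, which is both a motif position and a 3′ letter, accounted for 16.5% with C after. With T after, positions 3, 4 and 7 added up to 30.7%, of which position 7 accounted for 22.5%. The shares of positions read together were computed with A after alone. These shares describe this 1 set of folds and carry no test.

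C at the 3′ end marked the high members. At position 8 the median was 0.713 with C against 0.604 with G, and 11.2% of the members with C there were called higher, against 1.10% with A. At position 9 the median was 0.682 with C, 0.671 with A, 0.628 with T and 0.623 with G, and 12.9% of the members with C there were called higher, against 1.90% with A. The median at position 9 thus hardly set C apart from A, while the higher calls did. With G after the m6A the higher calls did so too, at 10.4% with C at position 9 and 1.90% with A. With C after the m6A they went the other way, at 29.2% and 46.8%, as with T after, at 20.1% and 36.8%. C throughout the 3′ end did not go with high folds, since the members ending in CCC had a median of 0.628 with 2.34% called higher.

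Of the 64 possible endings, read as positions 7 to 9, 4 had a median above 1. They were GCC at 1.57, TCC at 1.31, ATC at 1.17 and ACG at 1.14, and they are named because of their values. With 256 members each they made up 6.25% of the members but 53.7% of the members called higher. In GCC 163 members were called higher and 17 lower, in TCC 113 higher and 12 lower, in ATC 83 and 25, and in ACG 84 and 22. At the other end, GAT had a median of 0.522 with 252 of 256 members called lower and 0 higher.

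After another letter at position 6 the same endings had other medians. GCC had a median of 1.34 after T, 0.946 after C and 0.805 after G, next to 1.57 after A. TCC had 0.823 after C, 0.687 after T and 0.597 after G, next to 1.31 after A. ACG differed little, with 1.14 after A, 1.10 after G, 1.09 after C and 0.932 after T. With GCC, TCC and ACG alike, A after the m6A had the highest median of the 4 letters. These are descriptions of endings chosen on the A folds, and the differences were not tested over libraries.

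Within these endings the preceding letters mattered, and not in one direction. Before the ending GCC, the median was 1.78 with C at position 4, 1.74 with T, 1.61 with A and 1.11 with G. Before TCC it was 1.61 with G, 1.41 with A, 1.10 with T and 0.995 with C, and before ACG it was 1.35 with G, 1.20 with A, 1.15 with T and 0.883 with C. G before the m6A thus had the lowest median with GCC and the highest with TCC and ACG. Before ATC it had neither, with medians of 1.32 with A, 1.16 with G, 1.11 with T and 1.05 with C. Pyrimidines at the 5′ end went with high folds in GCC: with 3 pyrimidines at positions 1 to 3 the median of the 32 members was 2.73 and 29 were called higher, against 1.41 and 15 of 32 with 3 purines. Over all members the share called higher was 9.67% with 3 pyrimidines there and 3.22% with 3 purines, but the median did not follow, at 0.651 and 0.662, and the share called lower was 65.6% and 59.2%.

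The exceptions with high values were few. A fold of at least 2 was reached by 242 members, 1.48% of them, against 6.06% of the whole table, and all 242 were called higher at the shared adjusted p of 0.0443. A fold of at least 4 was reached by 43 members, 0.262% of them, against 1.28% of the whole table. Among the 242, position 9 was C in 177, position 8 was C in 142, and position 7 was G in 91, T in 78, A in 44 and C in 29. At position 1 there were 93 with T and 80 with C, against 46 with A and 23 with G. Position 4 was nearly even, with 70 A, 69 T, 57 G and 46 C. The endings GCC and TCC alone supplied 63 and 38 of the 242.

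Few of the high contexts were also high with another letter at position 6. Of the 242 contexts, 27 also reached 2 with C at position 6, which is 11.2% against 12.6% of all 9-mers with C there. With T it was 25, or 10.3% against 8.31%, and with G 19, or 7.85% against 1.87%. The 242 members were picked for a high fold, which by itself favours A in this comparison.

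The 43 members at or above 4 fell mostly into groups of near-identical sequences. When members that differ by 1 letter were joined, 39 of the 43 fell into 7 groups of 16, 7, 5, 4, 3, 2 and 2 members, and 4 stood alone. The groups were formed after the folds were seen and are a description. Such neighbours share most of their letters and are not independent of each other.

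The authors' deposited table gave the highest member, ctcaAAttc, a fold of 36.7, which ranked 17th of all 65536 9-mers. This sequence leads a group of 7 that share the letters caAAtt at positions 3 to 8 and vary at positions 1, 2 and 9. In the authors' deposited table ctcaAAttt stood at 13.1, ttcaAAttc at 11.9, gccaAAttc at 7.84, atcaAAttc at 6.80, cccaAAttc at 5.81 and cacaAAttc at 4.73. Of the 21 members that differ from ctcaAAttc by 1 letter, 11 reached 2 and 5 were below 1. Changes at position 1 left folds between 2.11 and 11.9, while changes at position 3 gave 0.621 to 3.01 and at position 8 gave 0.640 to 3.35. Changing the A at position 6 lowered the fold with each of the other letters: the matches ctcaACttc, ctcaAGttc and ctcaATttc had 1.76, 0.607 and 0.597 in the authors' deposited table.

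The register of this sequence mattered as well. With the window moved so that the same letters ctcaaatt occupied positions 2 to 9, the 4 members had folds between 0.743 and 1.09. With the window moved the other way, so that tcaaattc occupied positions 1 to 8 and T followed the central A, the 4 9-mers lay between 0.685 and 0.869. The middle A of the 3 in a row was thus the central position with the high fold.

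The authors' deposited table gave the second highest member, ttgtAAtgc, a fold of 35.7. Some of its positions allowed no other letter without a fold below 1. All 9 single-letter changes at positions 3, 7 and 8 gave folds below 1, between 0.508 and 0.981. Changes at position 4 left folds between 2.04 and 8.68, and those at position 1 between 0.623 and 14.1. In the authors' deposited table ctgtAAtgc stood at 14.1, ttgaAAtgc at 8.68 and atgtAAtgc at 8.08. The authors' deposited table listed its matches ttgtACtgc, ttgtAGtgc and ttgtATtgc at 0.633, 0.932 and 0.546, so none with another letter at position 6 was above 1.

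The third, ccggAAcgc, stood almost alone. Its fold was 23.0 in the authors' deposited table, and of its 21 single-letter neighbours 15 were below 1. The 3 that reached 2 were the changes at position 2, with ctggAAcgc at 10.9 in the authors' deposited table. Unlike the other leaders it had a high match with G at position 6, since the authors' deposited table gave ccggAGcgc a fold of 5.35, next to 1.05 for ccggACcgc and 0.952 for ccggATcgc.

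The fourth, agagAAccc, has purines alone on its 5′ side, and the authors' deposited table gave it a fold of 23.0. All 9 changes at positions 2, 3 and 4 gave folds below 1, between 0.564 and 0.878. Changes at position 1 left 2.11 to 8.29. In the authors' deposited table cgagAAccc stood at 8.29, tgagAAccc at 7.53, agagAAcct at 6.67 and agagAAtct at 6.16. This group has a DRACH motif at positions 4 to 8 in agagAAccc, cgagAAccc, tgagAAccc and agagAAcct, around the A at position 6, whereas the median of all members with a motif there was 0.645.

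The largest group held 16 members and was loosely joined, with C at position 9 as its constant letter beside the 2 central As. It was led by tctaAAtcc at 14.1, ctctAAgcc at 12.6 and ctccAAgcc at 9.82 in the authors' deposited table. Members with the ending GCC made up 10 of the 16, among them ttctAAgcc at 7.70, atctAAgcc at 7.10, tcttAAgcc at 6.70, tctaAAgcc at 6.62 and ctcaAAgcc at 6.54 in the authors' deposited table. Around tctaAAtcc, 11 of the 21 single-letter neighbours reached 2 and 4 were below 1. With the window moved so that tctaaatc occupied positions 2 to 9, the 4 members had folds between 1.39 and 5.66 with a median of 2.89. With ctaaatcc at positions 1 to 8, the 4 9-mers had folds between 1.27 and 1.84. Both shifts thus lay below the 14.1 that the authors' deposited table gave the leader.

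The remaining groups were smaller. The 3 members ctcgAAacg, ctcaAAacg and cttaAAacg share the ending ACG, and the authors' deposited table listed them at 6.74, 4.98 and 4.29. The pair tcacAAtcc and tcatAAtcc differ at position 4 alone and had 6.56 and 5.33 in the authors' deposited table. Of the 4 members without a partner, gaccAAatg was the highest, at 7.59 in the authors' deposited table. It was also a member whose match with C was higher still: gaccACatg had a fold of 27.1, and with T the fold was 6.19 and with G 0.585, in the authors' deposited table.

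The lowest members were spread over different sequences. The authors' deposited table gave cccgAAggg a fold of 0.351, gtgcAAttc 0.375, gcctAAccg 0.392, ttccAAtac 0.394 and gctcAAcct 0.397, and all 5 were called lower (adjusted p = 0.0443). These contexts differed in how far the matches with another letter at position 6 lay above the member. The 5 were picked for a low fold, which by itself favours higher matches, and none of the matches of cccgAAggg was called. In the authors' deposited table the matches of cccgAAggg were 0.985 with C, 0.616 with G and 0.882 with T, whereas those of gtgcAAttc were 0.385 with C, 0.388 with G and 0.415 with T. The letters of gtgcAAttc beyond position 4 are those of the highest member, ctcaAAttc, and the 2 differ at positions 1, 3 and 4 alone. The authors' deposited table gave 0.375 for the one and 36.7 for the other.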

How the data were processed

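The fold (a linear ratio of YTH domain over beads) and the unadjusted p-value of each 9-mer were deposited by the authors, per the file headers. The submitters' processing notes name cutadapt. Its version is not given in the sources used here, and neither is how 9-mers were counted, scaled or tested. A further 8 columns hold library values under names found in none of the labels, and they were left out, so library depth is unknown and no count model, low-level filter, pseudocount, library left out or permutation over libraries could be run. The design had planned these, and the deposited p-values were used in their place, adjusted by Benjamini-Hochberg over all 65536 9-mers (Python 3.11.15, pandas 2.3.3, numpy 2.4.6, scipy 1.17.1). All 9-mers at the smallest p share 1 adjusted p, which passes 0.05 because 64.5% of the table reached it.

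Medians, quartiles, counts and matched ratios were computed from the deposited folds. Sequences were read from the deposited table. The named 9-mers are the 10 highest, the 5 lowest, the one nearest the median, the highest for each letter at position 7 and the matches of the 3 highest, and further members at or above a fold of 4, endings and groups were chosen after their values were seen. The 9-mers and lists were chosen with earlier results of these data known. The scripts were tested on simulated data. Alternatives were other thresholds, means in place of medians, leaving out members with another DRACH motif or in the high groups, and folds divided by the table's median.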

Additional observations from a re-analysis of the deposited data

How the results depend on the processing

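The counts of called members depend on the threshold because the smallest possible p is shared by every call. At an adjusted p below 0.01 the number called was 0 higher and 0 lower, since the smallest p cannot reach it, while at an unadjusted p below 0.05 it was 825 and 11459 again. Asking also for a change of at least 1.5 times left 538 higher and 8808 lower, and of at least 2 times 242 higher and 859 lower. Divided by the median of all 9-mers, a choice made after seeing the data, folds above 1 numbered 3955 in place of 1595 and the members' median was 0.835. The median was 0.696 as a mean of log2 folds, 0.643 without members that hold another DRACH motif and 0.646 without the 7 high groups. As means, the matched log2 ratios were -0.73 against C, -0.0632 against G and -0.54 against T. A kept the highest value at positions 3, 4 and 7 under means and without other motifs, while the order of the lower letters changed at positions 3 and 7. No paired analysis was possible because the table's usable columns carry no replicate numbers. Libraries could not be left out 1 at a time, and levels, pseudocounts and count models were not run, for the same reason. With 4 libraries against 4, no p can fall below 0.0286, so calls do not rank the members. Calls reached folds as near to 1 as 1.07 on the higher side and 0.938 on the lower side.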
